A study of Homo sapiens with 12 samples.

Results

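Aramchol added to TGFβ was compared with TGFβ alone by RNA sequencing of H69 cells, a line of normal human bile duct epithelial cells (cholangiocytes) immortalised with a viral large T antigen. The members are the 6 libraries that the sample labels place in these groups, out of 12 in the series, and every gene with enough reads to be tested, which was 21567 of 62703 genes in the table. Each group had 3 libraries. The TGFβ group received TGFβ at 10 ng/mL, and the combination group received TGFβ at the same dose with Aramchol at 30 µM. The other 6 libraries, from cells given vehicle or Aramchol alone, served for comparison. All cells had been without serum for 6 h and were treated in serum-free medium through the night. They are 1 cell line throughout. Aramchol's dose appears only in the series text, without a group, and is assumed to apply to both groups that received it. Whether the libraries of a group came from separate cultures is not stated. Each p-value therefore reflects how far libraries spread within the 4 groups of the fit, possibly for technical reasons alone.

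TGFβ binds a pair of receptor kinases that phosphorylate SMAD transcription factors, and in bile duct cells it is known for raising matrix genes and weakening epithelial features. Aramchol joins a bile acid, cholic acid, to a saturated fatty acid, arachidic acid, and is known as an inhibitor of stearoyl-CoA desaturase (SCD), which makes monounsaturated fatty acids from saturated ones. Gene programmes of cell stress recur below. In the integrated stress response, phosphorylation of the translation factor eIF2α favours the production of the transcription factor ATF4, which with C/EBP partners binds C/EBP-ATF response elements of genes for amino acid uptake and synthesis. In the unfolded protein response of the endoplasmic reticulum (ER), the factors ATF6 and XBP1 raise chaperone genes, many through the ER stress response element.

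Both sequence elements can be seen in promoters of some of the called genes, and 4 promoters that hold a match are shown for that reason. The windows of FN1, SLC3A2 and MARS1 and of a second start of ASNS held neither element. Each is the 250 bases before the RefSeq transcription start, on GRCh38.p14, printed 5′ to 3′ on the strand of the gene. CHAC1 (chr15:40953221-40953470, plus strand) and ASNS (chr7:97872409-97872658, minus strand) rose with Aramchol. Capitals mark the C/EBP-ATF response element, searched on both strands as TGATGNAA. It begins 209 bases before the start of CHAC1, where it lies on the other strand, and 68 bases before the start of ASNS.
CHAC1: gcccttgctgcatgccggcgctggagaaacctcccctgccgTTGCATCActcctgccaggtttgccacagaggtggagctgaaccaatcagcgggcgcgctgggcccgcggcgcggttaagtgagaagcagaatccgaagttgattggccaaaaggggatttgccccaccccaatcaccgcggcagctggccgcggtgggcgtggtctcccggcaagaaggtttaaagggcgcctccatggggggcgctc
ASNS: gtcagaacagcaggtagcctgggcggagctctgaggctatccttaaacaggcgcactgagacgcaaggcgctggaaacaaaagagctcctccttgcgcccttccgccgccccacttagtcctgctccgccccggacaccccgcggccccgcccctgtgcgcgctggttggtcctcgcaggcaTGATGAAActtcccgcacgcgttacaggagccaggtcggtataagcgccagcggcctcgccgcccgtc

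HSPA5 (chr9:125241344-125241593, minus strand) and HSP90B1 (chr12:103930160-103930409, plus strand) fell. Capitals mark the 2 ends of the ER stress response element, CCAAT and CCACG with 9 bases between them, searched on both strands. HSPA5 holds 1 such site, which begins 66 bases before the start. HSP90B1 holds 2, which begin 89 and 194 bases before the start.
HSPA5: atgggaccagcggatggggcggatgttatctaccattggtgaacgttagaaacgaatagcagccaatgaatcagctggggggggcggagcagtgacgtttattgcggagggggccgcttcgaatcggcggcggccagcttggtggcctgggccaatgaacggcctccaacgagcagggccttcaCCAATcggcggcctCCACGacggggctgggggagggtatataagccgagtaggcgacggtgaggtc
HSP90B1: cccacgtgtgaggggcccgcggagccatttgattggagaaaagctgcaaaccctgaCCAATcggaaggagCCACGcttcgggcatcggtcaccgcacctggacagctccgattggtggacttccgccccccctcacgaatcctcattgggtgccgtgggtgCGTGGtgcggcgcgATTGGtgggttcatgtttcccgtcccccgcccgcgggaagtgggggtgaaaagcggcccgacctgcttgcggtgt

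Total counts were 59187804 to 68053666 in the TGFβ libraries and 61867133 to 70339925 in the combination libraries, and mitochondrially encoded genes took 8.26 to 8.82% and 7.81 to 8.53% of them. Levels are given in CPM, which are the usual depth-normalised counts, with library sizes adjusted by TMM in edgeR. A gene was called where the adjusted p of edgeR's quasi-likelihood test was under 0.05, and "rose" and "fell" are used of called genes only. Fold changes are given on the log2 scale with the standard error (SE) of the fit. On the first principal component of the 6 libraries, which held 30.7% of the variance, the TGFβ libraries lay at -37.2 to -13.7 and the combination libraries at 6.17 to 34.6. On the second, with 21.1%, both libraries numbered 3 stood apart, at -19.9 and -33.7 against 2.46 to 28.5 for the other 4. The sources used here do not say what the number stands for. The markers KRT7 (mean 938 CPM with TGFβ), KRT8 (1017 CPM) and KRT18 (325 CPM) of bile duct epithelium were abundant, while KRT19 (18.4 CPM) and EPCAM (3.37 CPM) were low and CFTR and SPP1 had 6 and 38 counts over the 6 libraries.

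Aramchol changed 486 genes in TGFβ-treated cells, 2.25% of those tested: 192 rose (0.89%) and 294 fell (1.36%). The changes were small. The median fold was 1.28 among genes that rose and 1.39 among genes that fell, 44 rose and 107 fell at least 1.5-fold, and 17 and 34 changed at least 2-fold. The median log2 change over all tested genes was -0.00069. The groups did not overlap in 485 of the 486 called genes, against 23.6% of all tested genes. The calls were made on the same libraries, so this separation largely follows from the selection and adds no support to a call. The number of calls rested on the libraries. It was 1683 with a term for the libraries numbered 3, with all 486 among them, and 1853 from libraries numbered 1 and 2 alone, with 469 among them. Leaving out a single library gave 108, 97 or 128 calls without TGFβ library 1, 2 or 3, and 55, 64 or 557 without combination library 1, 2 or 3. It gave 317, 291 or 525 calls without Aramchol library 1, 2 or 3, and 517, 391 or 1209 without vehicle library 1, 2 or 3. In each of these 12 fits all 486 genes kept their direction, and 40 were called in every one. The kept direction largely follows from the lack of overlap in 485 of them, so it adds no support either. Vehicle and Aramchol libraries are not part of this contrast and act on it through the shared spread, filter and scaling. Beside results below, the largest adjusted p of a gene over these 12 fits is given as its leave-one-out p.

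**Figure D1:**
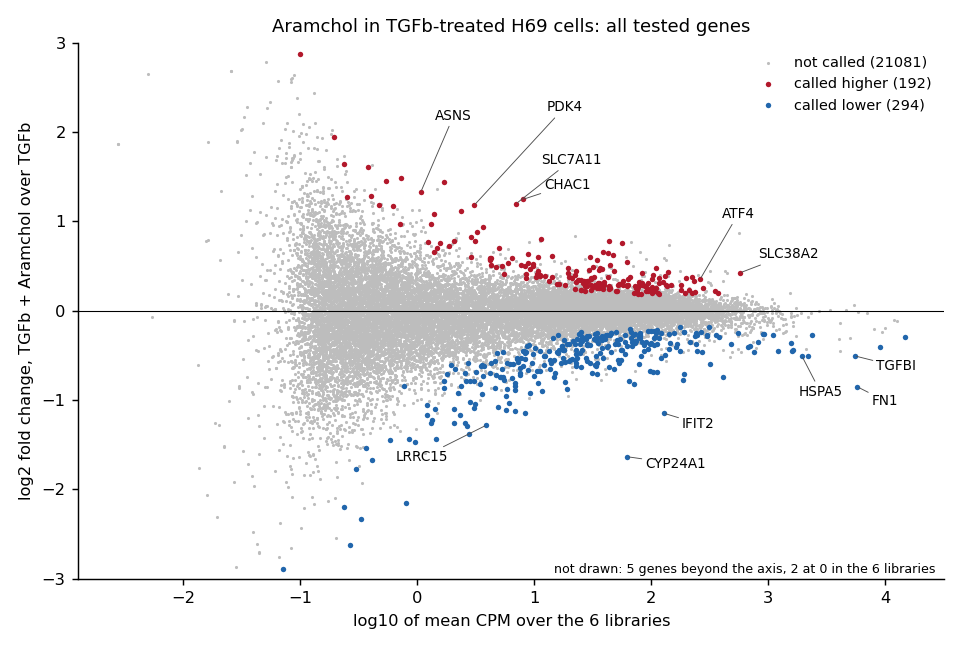
Log2 fold change of TGFβ + Aramchol against TGFβ (vertical axis) by mean CPM of the 6 libraries on a log axis, with 1 point per tested gene and called genes in colour. The 192 called rises and 294 called falls lie mostly within 1 log2 unit of 0, with CHAC1, SLC7A11 and ASNS above and CYP24A1 and FN1 below. Not drawn are 5 genes beyond the axis and 2 at 0 in the 6 libraries.

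Most called genes belonged to none of the lists used here, and the lists were counted without an enrichment test. The lists were chosen with earlier results of these data known, so their shares beside those over all genes are descriptions only. Called genes also had higher levels than all tested genes (median 36.5 CPM for rises, 23.6 for falls and 6.66 for all), and the lists were not matched for level. By gene list, 4 of 28 regulators of the integrated stress response, 5 of 23 amino acid transporters, 4 of 22 PPAR genes and 4 of 18 histone genes rose and none of these fell, against 0.89% rises over all genes. Of 35 ER chaperone and folding genes 11 fell, of 28 collagen chains 6, of 41 other matrix proteins 5, of 32 contractile genes 5 and of 27 Notch and Wnt genes 6, with no rise in these lists, against 1.36% falls over all genes. Apart from markers of other cell types, the lists with no call in edgeR were fatty acid desaturases and elongases (19 genes), bile acid genes (9), glutathione and ferroptosis genes (23), BMP and ID genes (19), ribosomal protein genes (39) and lysosome and autophagy genes (29). In that order 6, 1, 3, 3, 0 and 4 of their members had an unadjusted p under 0.05 in edgeR, and DESeq2 called 0, 0, 0, 2, 0 and 1. Over all tested genes 3705 of 21567 had such a p in edgeR, and DESeq2 called 1045 genes. Members that were named because their list held few calls were named after their values were seen. List counts from other fits, given below, are to be read beside the calls over all genes in the same fit. These were 727 rises and 956 falls with a term for the libraries numbered 3, and 763 and 1090 from libraries 1 and 2 alone. Without vehicle library 3 there were 497 and 712, against 192 and 294 in the main fit.

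**Figure D2:**
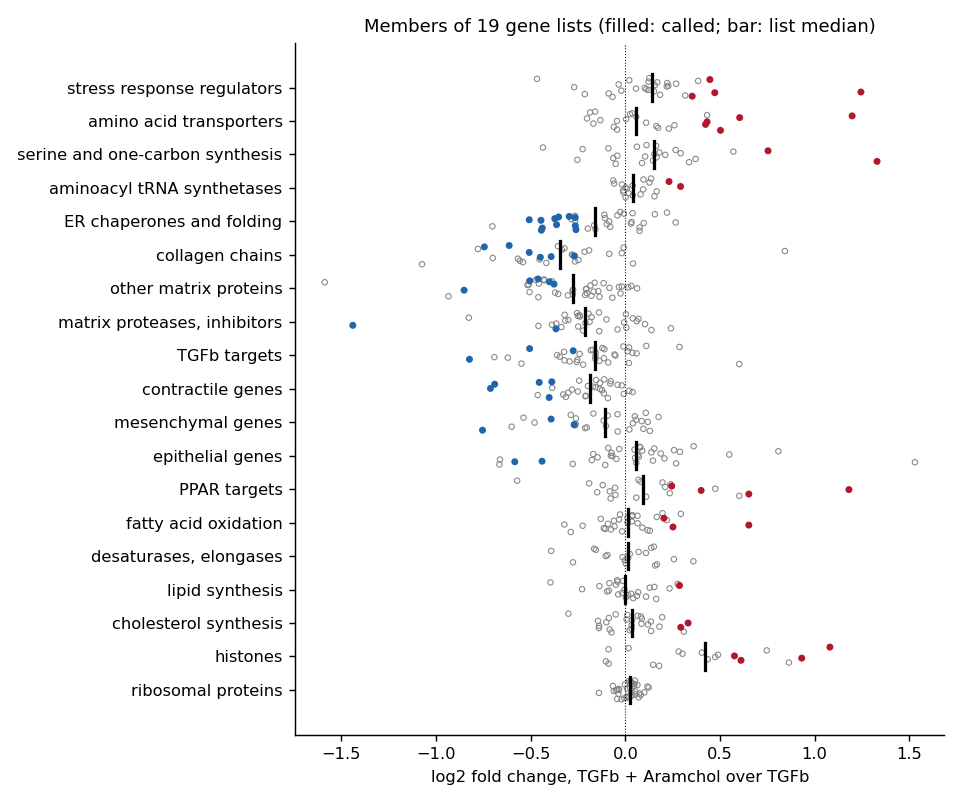
Gene lists in TGFβ + Aramchol against TGFβ: each point is 1 measured gene at its log2 fold change, called genes are in colour, and the bar is the median of the list. Collagen chains (median -0.35), other matrix proteins (median -0.28) and ER chaperones (median -0.16) lie to the lower side, and regulators of the integrated stress response (median 0.14) to the higher side.

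Of 28 genes of the integrated stress response 4 rose with Aramchol. CHAC1, an enzyme that degrades glutathione and a target of ATF4, was at 4.03, 5.13 and 5.01 CPM in TGFβ libraries 1 to 3 and at 10.2, 10.4 and 13.0 CPM in combination libraries 1 to 3. All 3 combination libraries lay above all TGFβ libraries, and the log2 fold change was 1.24 ± 0.14 (SE, n = 3 and 3; edgeR adjusted p = 0.00134, leave-one-out p 0.0137). ATF4 itself, the transcription factor of this response, was at 230, 228 and 231 CPM with TGFβ and at 303, 278 and 299 CPM with the combination, again without overlap, a smaller change of 0.35 ± 0.05 (adjusted p = 0.00542, leave-one-out p 0.0414). CEBPG, a partner with which ATF4 binds DNA, went from 31.4, 31.0 and 28.7 CPM to 42.8, 42.8 and 40.6 CPM (0.47 ± 0.06, adjusted p = 0.00268, leave-one-out p 0.0279). The 3 TGFβ values of CEBPG all lay below the combination values. TRIB3, a pseudokinase that restrains ATF4, went from 38.1, 41.9 and 42.1 CPM to 55.7, 52.7 and 58.0 CPM (0.45 ± 0.09, adjusted p = 0.0228), also without overlap, but its leave-one-out p was 0.0996. DDIT3, which encodes the stress factor CHOP, was at 5.82, 6.23 and 5.29 CPM with TGFβ and at 7.30, 6.65 and 5.33 CPM with the combination, where the groups overlapped (0.15 ± 0.13, adjusted p = 0.623). The list of 28 regulators and targets had a median of 0.14, with 21 positive values. Without any single library of the 2 groups other than combination library 3 the list had 3 rises and no fall, and without vehicle library 3 it had 8 rises and 2 falls.

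Of 23 amino acid transporters 5 rose. SLC7A11, the cystine importer, was at 3.93, 3.48 and 5.36 CPM with TGFβ and at 8.30, 9.81 and 11.1 CPM with the combination. The lowest combination library exceeded the highest TGFβ library, with a change of 1.2 ± 0.17 (adjusted p = 0.00346, leave-one-out p 0.0302). SLC38A2, a carrier of small neutral amino acids such as alanine and glutamine, was the most abundant of the group at 483, 499 and 483 CPM with TGFβ and 660, 705 and 600 CPM with the combination. Its groups did not overlap (0.42 ± 0.06, adjusted p = 0.00251, leave-one-out p 0.0243). SLC3A2, the heavy chain that pairs with SLC7A11, went from 113, 123 and 120 CPM to 166, 161 and 154 CPM (0.43, adjusted p = 0.0285, leave-one-out p 0.129). SLC6A9, a glycine transporter, went from 7.62, 8.13 and 9.87 CPM to 11.9, 12.2 and 14.8 CPM (0.60, adjusted p = 0.0433, leave-one-out p 0.159). SLC1A1, a glutamate transporter, went from 7.85, 7.66 and 8.67 CPM to 11.6, 12.6 and 10.0 CPM (0.50, adjusted p = 0.0195, leave-one-out p 0.114). In these 3 carriers too, each combination library lay above each TGFβ library. The list had 2 calls without TGFβ library 1 or 2 or combination library 1 or 2, 3 without TGFβ library 3 and 7 without vehicle library 3, and its median over 23 genes was 0.06.

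Enzymes that make amino acids and load them on transfer RNA gave fewer calls. ASNS, asparagine synthetase, was scarce, at 0.554, 0.643 and 0.636 CPM with TGFβ and 1.62, 1.33 and 1.67 CPM with the combination. The rise was 1.33 ± 0.19 without overlap (adjusted p = 0.00428, leave-one-out p 0.0302), and 49.3% of the exon bases of ASNS are shared with other genes, so its count is uncertain. PSAT1, a serine synthesis enzyme, was at 37.7, 39.8 and 49.2 CPM with TGFβ and at 61.9, 60.0 and 91.7 CPM with the combination. The groups did not overlap and library 3 was the highest of each (0.75 ± 0.14, adjusted p = 0.0154). Without TGFβ library 1 or 2 the adjusted p of PSAT1 was 0.0776 or 0.0757. These were the only calls among 24 genes of serine, glycine, asparagine, proline and one-carbon synthesis (median 0.15). PHGDH, the first enzyme of serine synthesis, had a change of 0.57 with an adjusted p of 0.0561. Of 20 cytosolic tRNA synthetases 2 rose, MARS1 by 0.29 (adjusted p = 0.0168) and TARS1 by 0.23 (adjusted p = 0.0375), which load methionine and threonine (leave-one-out p 0.0783 and 0.157).

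**Figure D3:**
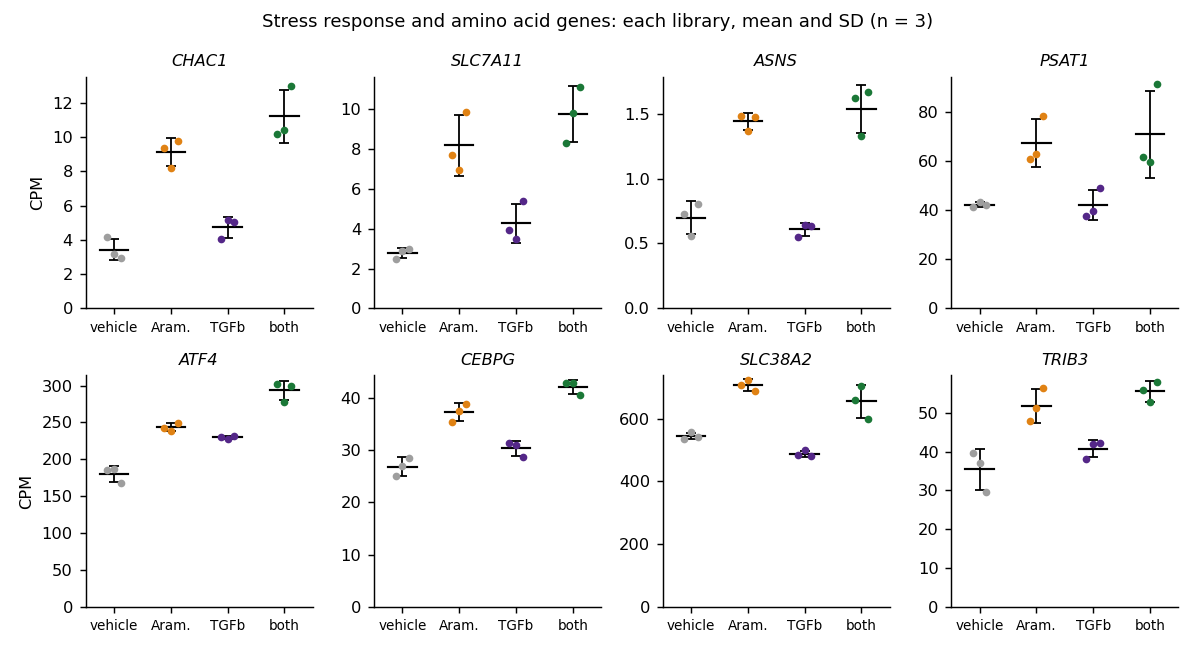
CPM of 8 stress and amino acid genes in the 4 groups, with points for libraries and bars for the mean ± SD (n = 3). In each of the 8 panels every combination library lies above every TGFβ library, for example CHAC1 at 10.2 to 13.0 against 4.03 to 5.13 CPM and ATF4 at 278 to 303 against 228 to 231 CPM.

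The C/EBP-ATF response element shown above was counted in all matched promoters. RefSeq windows were matched for 13051 tested genes, 149 of the 192 that rose and 215 of the 294 that fell. The element was in 2.44% of tested promoters, in 7 of 149 (4.70%) promoters of genes that rose and in 3 of 215 (1.4%) of genes that fell. Among genes of the stress, amino acid and tRNA synthetase lists that rose it was in 3 of 12, which were ASNS, CEBPG and CHAC1. A match describes the letters of a window and is not evidence of a bound site. The sterol regulatory element, searched as TCACNCCA on both strands, was in 3.79% of tested promoters, 4.03% of promoters of genes that rose and 4.19% of those that fell.

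Several matrix genes fell, and fibronectin (FN1), a large adhesive protein of the extracellular matrix, led them: its adjusted p was the second lowest of all tested genes, after that of PIK3AP1, a signalling adaptor that was looked up for its p and fell by 0.80 (adjusted p = 0.000149). FN1 was at 6954, 6960 and 8339 CPM with TGFβ and at 3686, 4091 and 4554 CPM with the combination. The groups were far apart, with a change of -0.85 ± 0.08 (adjusted p = 0.00025, leave-one-out p 0.00241). By mean RPKM, a level per gene length, FN1 ranked 47 among all genes with TGFβ and 88 with the combination. COL4A1, a chain of the basement membrane collagen, was at 802, 797 and 790 CPM with TGFβ and at 575, 637 and 608 CPM with the combination. Its groups were tight and separate (-0.39 ± 0.05, adjusted p = 0.00346, leave-one-out p 0.0306). COL4A2, its partner chain, went from 1212, 1214 and 1173 CPM to 954, 1048 and 984 CPM (-0.27 ± 0.05, adjusted p = 0.0147, leave-one-out p 0.0801). TGFBI, an adhesive matrix protein named for its induction by TGFβ, went from 6182, 6263 and 6823 CPM to 4409, 4108 and 5055 CPM (-0.51 ± 0.09, adjusted p = 0.0112, leave-one-out p 0.0644). Both genes fell in every combination library relative to every TGFβ library.

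Further collagens fell by similar or larger amounts. COL27A1, a fibrillar chain of cartilage, went from 271, 280 and 294 CPM to 178, 202 and 238 CPM (-0.45, adjusted p = 0.0129, leave-one-out p 0.0644). COL5A1, a chain of the fibril-nucleating collagen, went from 2277, 2419 and 2934 CPM to 1499, 1704 and 2163 CPM (-0.51, adjusted p = 0.0317, leave-one-out p 0.151). COL8A2 fell by 0.74 (adjusted p = 0.0242) and COL9A3 by 0.61 (adjusted p = 0.0464) at levels under 8 CPM, with leave-one-out p of 0.133 and 0.173. In all 4 the groups did not overlap, and library 3 was the highest of its group in COL27A1 and COL5A1. COL1A1, the main chain of scar collagen, was at 4211, 4398 and 5649 CPM with TGFβ and at 3034, 3067 and 4314 CPM with the combination. Combination library 3 lay within the TGFβ range, and the change of -0.45 ± 0.13 did not pass (adjusted p = 0.0949). Over the 28 collagen chains the median was -0.35 and 26 were negative. The list had 16 falls with a term for the libraries numbered 3 and 20 from libraries 1 and 2 alone, where 956 and 1090 genes fell in all. It had 1 fall without TGFβ library 2 or combination library 1, 2 without TGFβ library 3 or combination library 2, 3 without TGFβ library 1, 10 without combination library 3 and 13 without vehicle library 3.

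Among the other matrix proteins, MATN3, SPARC and VCAN fell beside FN1 and TGFBI. SPARC, a collagen-binding matricellular protein, went from 728, 693 and 863 CPM to 541, 518 and 671 CPM (-0.40, adjusted p = 0.0356, leave-one-out p 0.168). VCAN, the proteoglycan versican, went from 883, 852 and 881 CPM to 595, 662 and 644 CPM (-0.46, adjusted p = 0.0401, leave-one-out p 0.172). MATN3, a matrilin of cartilage matrix, fell by 0.38 (adjusted p = 0.0314, leave-one-out p 0.158). None of the 3 overlapped between groups. The median of the 41 proteins was -0.28 with 38 negative, and a term for the libraries numbered 3 gave 16 falls. The list had 1 fall without TGFβ library 3 or combination library 1 or 2, 2 without TGFβ library 1 or 2 or Aramchol library 2, 3 without Aramchol library 1 and 14 without vehicle library 3. Of 24 genes that modify or crosslink collagen 2 fell, the lysyl oxidase relative LOXL3 by 0.75 (adjusted p = 0.0105) and the prolyl hydroxylase subunit P4HA3 by 0.47 (adjusted p = 0.022). Of 33 proteases and their inhibitors 2 fell, the metalloproteinases ADAM19 by 0.37 (adjusted p = 0.0147) and ADAMTS4 by 1.44 (adjusted p = 0.0401). The leave-one-out p of these 4 was 0.0644, 0.101, 0.0851 and 0.131. ADAMTS4 did not meet the conditions for the 15 largest falls given below, which were 5 CPM or more in the higher group and no overlap. Without vehicle library 3 the collagen-modifying list had 5 falls and the protease list 8.

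**Figure D4:**
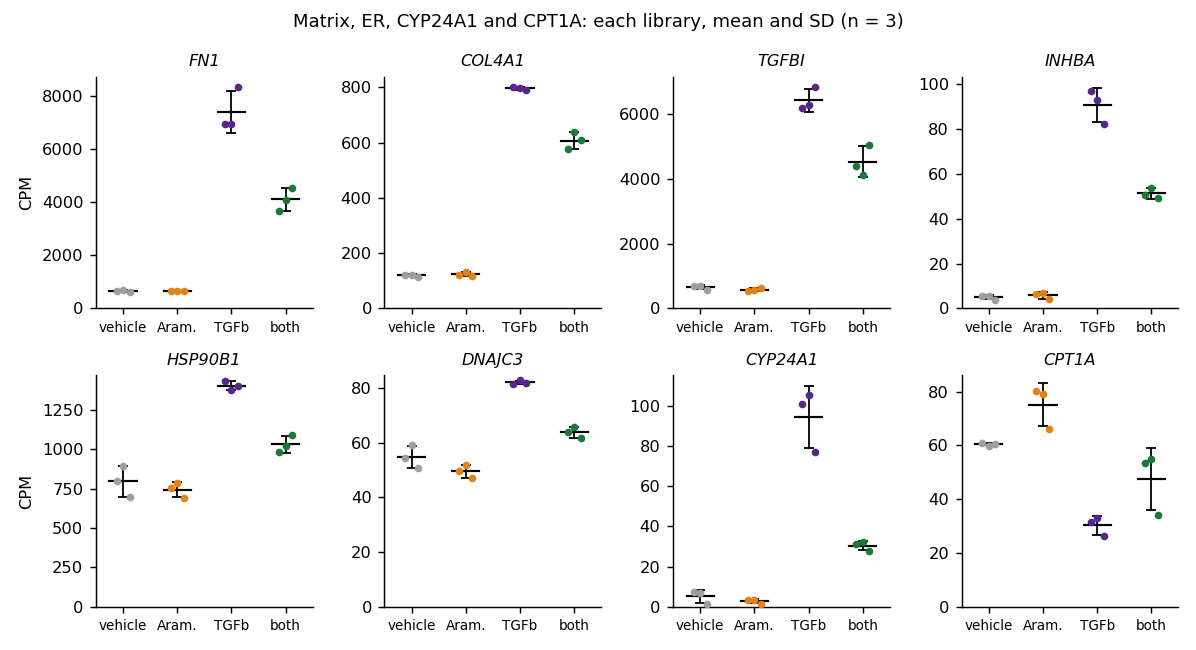
CPM of matrix genes, TGFβ targets, ER chaperones, CYP24A1 and CPT1A in the 4 groups, with points for libraries and bars for the mean ± SD (n = 3). FN1 lies at 3686 to 4554 CPM with the combination and 6954 to 8339 CPM with TGFβ, while CPT1A shows the opposite order, with combination library 3 the lowest of its group at 34.2 CPM.

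In these bulk libraries fewer cells of a type and less RNA per cell cannot be told apart. The fibroblast list includes collagen genes, so it is not separate from the matrix genes. Its summed level over 15 genes was 4855 to 6386 CPM with TGFβ and 3502 to 4856 CPM with the combination, ranges that touched. COL1A1, which was not called, alone had levels close to these sums. Of the 15 markers, PDGFRB (-0.45, adjusted p = 0.0164) and TAGLN (-0.69, adjusted p = 0.044) fell. The part of fibroblast markers in the result was not tested. Summed markers of cholangiocytes (20 genes) were 3095 to 3298 CPM and 2817 to 3064 CPM, of keratinocytes (12 genes) 665 to 739 CPM and 534 to 629 CPM, of endothelial cells (11 genes) 124 to 127 CPM and 105 to 110 CPM, and of hepatocytes (11 genes) 176 to 186 CPM and 153 to 167 CPM. Other markers were too low to be tested. Of 2 such fibroblast markers COL3A1 had 12 counts over the 6 libraries and DPT had 9. Of 10 such hepatocyte markers TTR was at 0 and the highest was ALB with 18 counts over the 6 libraries, and of 7 leukocyte markers CD3E and CD163 were at 0 and CD68 had the most with 22. Of 7 keratinocyte markers SPRR1A and SPRR1B were at 0 and DSG3 had the most with 17, and of 2 endothelial markers EMCN was at 0 and PLVAP had 26. The 6 measured leukocyte markers summed to 28.7 to 32.2 CPM and 23.1 to 24.2 CPM, most of it CSF1R, which fell from 19.5, 21.2 and 22.3 CPM to 14.3, 13.8 and 15.6 CPM (adjusted p = 0.0219, leave-one-out p 0.113).

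Of 35 chaperone and folding genes of the ER 11 fell. HSPA5 (BiP), the main chaperone of the ER lumen, was at 2238, 2237 and 2345 CPM with TGFβ and at 1520, 1554 and 1723 CPM with the combination. The groups were well separated, with a change of -0.51 ± 0.12 (adjusted p = 0.0401), but the leave-one-out p was 0.17. HSP90B1 (GRP94), the ER form of HSP90, was at 1430, 1375 and 1402 CPM with TGFβ and at 981, 1021 and 1088 CPM with the combination (-0.45 ± 0.08, adjusted p = 0.0112), without overlap. Its adjusted p was 0.0527 without TGFβ library 1 and 0.0664 without combination library 1. DNAJC3, a co-chaperone of BiP that also restrains the eIF2α kinase PERK, went from 81.5, 82.8 and 81.9 CPM to 63.8, 65.8 and 61.8 CPM. The libraries of each group were close together and the fall of 0.36 held in each of the 12 fits (adjusted p = 0.00888, leave-one-out p 0.0488).

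The calcium-binding lectin chaperones moved the same way. CALR (calreticulin) went from 1794, 1853 and 1957 CPM to 1318, 1340 and 1462 CPM (-0.44, adjusted p = 0.0214, leave-one-out p 0.108). CANX (calnexin) went from 997, 956 and 976 CPM to 783, 833 and 830 CPM (-0.26, adjusted p = 0.0364, leave-one-out p 0.165). The protein disulfide isomerases PDIA3, PDIA4 and PDIA6, which form disulfide bonds, fell by 0.26, 0.35 and 0.30 (adjusted p = 0.0248, 0.0175 and 0.0359). The remaining 3 were the secreted ER factors MANF, which fell by 0.37 (adjusted p = 0.0235), and CRELD2, by 0.44 (adjusted p = 0.0268), and the co-chaperone DNAJB11, by 0.26 (adjusted p = 0.0391). The leave-one-out p of these 6 lay between 0.0955 and 0.18. The 35 genes of the list summed to 12260 to 12850 CPM with TGFβ and 9731 to 10530 CPM with the combination, 26 were negative, and their median was -0.16. Against TGFβ alone the list had 14 falls and 1 rise with a term for the libraries numbered 3, and 15 falls and 1 rise from libraries 1 and 2. It had 1 fall without combination library 1, 2 without combination library 2 or any 1 TGFβ library, 7 without Aramchol library 1 or 2 and 15 without vehicle library 3. Of 27 genes for export from the ER only ARFGAP1, which acts on the Golgi coat, was called, with a fall of 0.25 (adjusted p = 0.0375, leave-one-out p 0.154).

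The ER stress response element recurred in the promoters of these chaperones. It was in 16 of 13051 matched promoters of tested genes (0.123%), in none of the 149 that rose and in 6 of the 215 that fell (2.79%), which were CALR, CANX, CRELD2, HSP90B1, HSPA5 and PDIA6. Within the ER list 8 of 32 matched promoters held it, 6 of them among the 10 matched genes that fell. XBP1 and ERO1B also held it and were not called, with changes of -0.03 (adjusted p = 0.935) and -0.09 (adjusted p = 0.787). CRELD2 shares its site with the neighbouring gene ALG12, whose change was -0.13 (adjusted p = 0.497). This element was searched after the falls of ER chaperones had been seen, so the overlap is a description. The sites are printed from CCAAT to CCACG, with the constant ends in capitals, to show how the bases between them differ.
CALR: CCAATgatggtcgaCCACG
CANX: CCAATcttcacactCCACG
CRELD2: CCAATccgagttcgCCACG
PDIA6: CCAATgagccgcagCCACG
HSPA5: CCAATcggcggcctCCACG

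TGFβ targets outside the matrix gave few calls. INHBA, the subunit of activin A, was at 96.7, 92.9 and 82.0 CPM with TGFβ and at 50.6, 53.8 and 49.2 CPM with the combination. Every combination library lay well below the TGFβ libraries (-0.82 ± 0.13, adjusted p = 0.00888), and the adjusted p without combination library 1 was 0.0583. SMURF2, a ubiquitin ligase that limits TGFβ receptors, went from 91.0, 86.6 and 86.1 CPM to 73.3, 73.2 and 71.5 CPM (-0.28, adjusted p = 0.0156, leave-one-out p 0.0753). SMAD7, the inhibitory SMAD, was at 88.0, 89.7 and 87.6 CPM with TGFβ and at 74.8, 69.3 and 67.9 CPM with the combination. Its groups did not overlap, but the change of -0.32 ± 0.08 did not pass (adjusted p = 0.0628). With TGFBI, 3 of 36 targets fell and none rose (median -0.16). A term for the libraries numbered 3 gave 6 falls and 1 rise. The list had no fall without combination library 1, 1 without combination library 2, 2 without any 1 TGFβ library, 5 without vehicle library 1 and 10 without vehicle library 3.

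Mesenchymal and contractile genes fell in part. CDH11, a mesenchymal cadherin, went from 7.80, 7.39 and 8.92 CPM to 4.56, 4.64 and 5.08 CPM (-0.75, adjusted p = 0.018, leave-one-out p 0.0944). SNAI1, a repressor of epithelial genes, went from 46.3, 48.0 and 50.7 CPM to 37.3, 33.8 and 39.4 CPM (-0.39, adjusted p = 0.0453, leave-one-out p 0.19). ITGB1, the integrin chain shared by most fibronectin receptors, went from 2575, 2487 and 2729 CPM to 2018, 2088 and 2352 CPM (-0.27, adjusted p = 0.0453, leave-one-out p 0.197). These were 3 of 28 mesenchymal genes, with no overlap between groups, and the list had no fall without any 1 library of the 2 groups other than combination library 3, 1 without Aramchol library 1 or 2 and 6 without vehicle library 3. VIM (vimentin) had a change of -0.09 ± 0.06 (adjusted p = 0.461).

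Of 32 contractile genes 5 fell. MYL9, a regulatory light chain of myosin, went from 243, 234 and 231 CPM to 152, 131 and 148 CPM (-0.71, adjusted p = 0.0153, leave-one-out p 0.0725). TPM1, a tropomyosin, went from 1839, 1739 and 1923 CPM to 1297, 1251 and 1465 CPM (-0.45, adjusted p = 0.0324, leave-one-out p 0.147). ACTB, cytoplasmic actin, went from 9662, 10304 and 10503 CPM to 7721, 7253 and 8079 CPM (-0.40, adjusted p = 0.0354, leave-one-out p 0.133). The groups of all 3 were separate. TPM2 and the actin-binding protein TAGLN were the others, with falls of 0.39 (adjusted p = 0.0378) and 0.69 (adjusted p = 0.044) and leave-one-out p of 0.139 and 0.145. ACTA2, smooth muscle actin, was near 10 CPM in both groups, which overlapped (-0.09 ± 0.11, adjusted p = 0.74). The list median was -0.18 with 30 negative values, and a term for the libraries numbered 3 gave 14 falls. The list had no fall without TGFβ library 1 or 2 or combination library 1 or 2, 1 without TGFβ library 3 or Aramchol library 1 or 2 and 14 without vehicle library 3.

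None of the 35 listed epithelial genes rose in the fit of all libraries. Of these junction, adhesion and transcription factor genes 2 were called and both fell, the tight junction proteins CLDN4, from 20.6, 20.6 and 19.3 CPM to 14.1, 14.2 and 12.1 CPM (-0.58, adjusted p = 0.00888, leave-one-out p 0.0458), and CLDN7 (-0.44, adjusted p = 0.0153, leave-one-out p 0.0831). CDH1 (E-cadherin) was at 10.5, 10.7 and 12 CPM with TGFβ and 9.30, 11.3 and 10.2 CPM with the combination. The groups overlapped (-0.11 ± 0.10, adjusted p = 0.662), and KRT7 and KRT19 did not pass (adjusted p = 0.673 and 0.569). The YAP and TAZ targets ARHGEF17 and NUAK2 fell by 0.28 (adjusted p = 0.0176) and 0.32 (adjusted p = 0.0353), 2 of 24, with leave-one-out p of 0.0895 and 0.114. Without vehicle library 3 the epithelial list had 1 rise and 4 falls and the YAP and TAZ list 1 rise and 6 falls.

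Genes of fatty acid use gave several rises, and genes of lipid synthesis gave 1. PDK4, a kinase that turns off pyruvate dehydrogenase and a PPAR target, was at 1.95, 1.8 and 1.87 CPM with TGFβ and at 4.99, 5.17 and 2.62 CPM with the combination. Combination library 3 was the lowest of its group and still above the TGFβ libraries (1.18 ± 0.22, adjusted p = 0.0137, leave-one-out p 0.0756). CPT1A, which carries fatty acids into mitochondria, went from 31.5, 32.9 and 26.3 CPM to 53.4, 55.1 and 34.2 CPM with the same order (0.65 ± 0.14, adjusted p = 0.0259, leave-one-out p 0.143). The receptor PPARA rose by 0.25 (adjusted p = 0.0451, leave-one-out p 0.244), and this call was lost with RLE scaling (0.0527), with upper quartile scaling (0.0564) and with no filter (0.0511). IMPA2, an inositol phosphatase, rose by 0.40 (adjusted p = 0.0147, leave-one-out p 0.0801). These were 4 of 22 PPAR genes. Beside CPT1A, the oxidation enzymes ACADVL (0.25, adjusted p = 0.018) and ETFA (0.20, adjusted p = 0.0369) rose, 3 of 31 in that list, with leave-one-out p of 0.0983 and 0.163. With no filter the adjusted p of ETFA was 0.0753. Each list had no call without TGFβ library 1 or 2 or combination library 1 or 2 and 1 without TGFβ library 3. Without vehicle library 3 the PPAR list had 6 rises and 1 fall and the oxidation list 4 rises and 2 falls, and without combination library 3 the oxidation list had 2 of each. PLIN2, which coats lipid droplets, was at 39.9, 36.9 and 35.7 CPM with TGFβ and 58.2, 52.1 and 46.1 CPM with the combination. The groups did not overlap, and the change of 0.48 ± 0.12 did not pass (adjusted p = 0.0569).

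SCD, the enzyme Aramchol is known to inhibit, was at 1018, 1046 and 1039 CPM with TGFβ and at 905, 883 and 980 CPM with the combination. All combination values were lower, but the change of -0.16 ± 0.10 did not pass (95% interval -0.38 to 0.05, adjusted p = 0.448). None of the 19 desaturases and elongases was called. Of 26 genes of lipid synthesis 1 was called, MID1IP1, which activates acetyl-CoA carboxylase and rose by 0.28 (adjusted p = 0.0324, leave-one-out p 0.124). Fatty acid synthase FASN was at 738, 849 and 951 CPM and at 787, 810 and 933 CPM, with overlapping groups (adjusted p = 0.995). Of 27 cholesterol genes 2 rose, among them the isoprenoid enzyme GGPS1 by 0.29 (adjusted p = 0.027, leave-one-out p 0.138). HMGCS1 and INSIG1, further targets of sterol control, did not pass (adjusted p = 0.654 and 0.77). ABCA1, which exports cholesterol and is a target of LXR, fell from 98.8, 95.8 and 102 CPM to 66.4, 77.4 and 74.1 CPM. Its groups were separate (-0.45 ± 0.06, adjusted p = 0.00332, leave-one-out p 0.0243), and it was the 1 call among 14 LXR genes.

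Notch and Wnt genes fell in 6 of 27. HEYL, a transcriptional target of Notch, went from 6.18, 7.5 and 9.85 CPM to 3.05, 2.90 and 4.92 CPM (-1.11 ± 0.20, adjusted p = 0.0114, leave-one-out p 0.0748). NOTCH3, a Notch receptor, went from 35.8, 41.4 and 51.9 CPM to 22.6, 24.3 and 32.1 CPM (-0.71, adjusted p = 0.0299, leave-one-out p 0.154). In both genes the groups were separate and library 3 was the highest of its group. TCF7, a Wnt transcription factor, went from 42.9, 41.3 and 42.7 CPM to 31.0, 30.1 and 30.3 CPM (-0.47, adjusted p = 0.0105, leave-one-out p 0.053). The Wnt feedback gene NKD1 fell by 0.55 (adjusted p = 0.0233, leave-one-out p 0.13) and DKK3 by 0.23 (adjusted p = 0.0401, leave-one-out p 0.169). The list had no call without combination library 1, 1 without combination library 2 or TGFβ library 3, 3 without TGFβ library 1 or 2 and 4 without Aramchol library 1 or 2 or vehicle library 2. Of 22 CDK inhibitors and p53 targets 3 fell. They were MDM2, the ligase that degrades p53 (160, 153 and 174 CPM to 111, 120 and 130 CPM, adjusted p = 0.011), the death gene PMAIP1 (-0.36, adjusted p = 0.0317) and TP53I3 (-0.40, adjusted p = 0.0324). This list had no fall without combination library 1, 1 without combination library 2 or any 1 TGFβ library, 2 without combination library 3 and 5 without vehicle library 3. The leave-one-out p of MDM2, PMAIP1 and TP53I3 was 0.0644, 0.119 and 0.133, and CDKN1A (p21) did not pass (-0.21, adjusted p = 0.309).

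Some immediate early genes and histones rose. JUND, a component of AP-1, was at 86.9, 88.9 and 99 CPM with TGFβ and at 134, 117 and 131 CPM with the combination, without overlap (0.47, adjusted p = 0.00945, leave-one-out p 0.063). FOS, its partner, rose from 1.8, 1.96 and 2.43 CPM to 4.07, 3.17 and 3.74 CPM (0.83, adjusted p = 0.0164, leave-one-out p 0.0872), and the nuclear receptor NR4A2 from 1.75, 1.46 and 1.22 CPM to 3.47, 3.65 and 2.53 CPM (1.12, adjusted p = 0.017, leave-one-out p 0.0859). With DUSP8, a phosphatase of MAP kinases (0.53, adjusted p = 0.0276, leave-one-out p 0.132), 4 of 34 rose. That list had no call without combination library 1, 1 without TGFβ library 2 and 2 without TGFβ library 1 or 3 or combination library 2. Of 18 replication-dependent histone genes 4 rose, with a list median of 0.42: H4C8 (1.08, adjusted p = 0.00716, leave-one-out p 0.0465), H2BC11 (0.93, adjusted p = 0.018, leave-one-out p 0.0912), H2AC6 (0.61, adjusted p = 0.0203, leave-one-out p 0.0958) and H2BC21 (0.58, adjusted p = 0.0339, leave-one-out p 0.133). The histone list had 1 rise without TGFβ library 1 or combination library 1 or 2, and 2 without TGFβ library 2. Histone genes are near copies of each other, so how reads were split between them is uncertain.

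Cell cycle genes gave 3 calls. The S phase regulators E2F1 and E2F2 rose by 0.24 (adjusted p = 0.0324, leave-one-out p 0.16) and 0.41 (adjusted p = 0.0181, leave-one-out p 0.083), 2 of 33, and the centromere histone CENPA by 0.33 (adjusted p = 0.0317, leave-one-out p 0.165). CENPA was 1 of 31 mitotic genes, all of which had positive values, between 0.02 and 0.33. MKI67, the proliferation marker, did not pass (0.14 ± 0.06, adjusted p = 0.275). PER1, a repressor of the circadian clock, rose from 47.6, 51.7 and 50.5 CPM to 72.4, 76.0 and 70.3 CPM. It was the 1 call among 19 clock genes, with separate groups (0.55, adjusted p = 0.00134, leave-one-out p 0.0137).

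Interferon-stimulated genes moved in different directions. IFIT2, which binds foreign RNA, was at 214, 196 and 122 CPM with TGFβ and at 90.5, 86.4 and 62.8 CPM with the combination. Library 3 was the lowest of each group, and the groups did not overlap (-1.15 ± 0.19, adjusted p = 0.0102, leave-one-out p 0.0495). OASL, a related antiviral protein, went from 263, 244 and 200 CPM to 154, 145 and 115 CPM (-0.78, adjusted p = 0.0213, leave-one-out p 0.0888). IRF7, a transcription factor for interferon, rose from 37.6, 35.7 and 27.2 CPM to 54.7, 52.7 and 50.3 CPM (0.65, adjusted p = 0.0436, leave-one-out p 0.193). These were 3 of 39 genes, whose median was 0.18, and a term for the libraries numbered 3 gave 13 rises and 4 falls. The interferon list had 7 rises and 4 falls without Aramchol library 3, 5 and 4 without vehicle library 3, and 4 falls without TGFβ library 3. It had 1 fall and no rise without TGFβ library 1 or 2 or any 1 combination library, and 2 falls without Aramchol library 2 or vehicle library 2. Among 40 cytokines and growth factors EREG, a ligand of the EGF receptor, rose from 7.87, 7.59 and 9.27 CPM to 15, 16.5 and 11.7 CPM (0.81, adjusted p = 0.0132, leave-one-out p 0.0713) and FGF2, a fibroblast growth factor, fell from 61.8, 61.6 and 52.2 CPM to 36.3, 41.3 and 34 CPM (-0.65, adjusted p = 0.0128, leave-one-out p 0.0667). IL6, IL11 and CCL2 did not pass (adjusted p = 0.644, 0.693 and 0.43). Single calls in other lists were BIRC3, an inhibitor of cell death, which rose by 0.57 (adjusted p = 0.0146), the haem oxygenase HMOX1, which fell by 0.46 (adjusted p = 0.0147), the glycolytic regulator PFKFB3, which fell by 0.30 (adjusted p = 0.014), and MT-CO1, a mitochondrially encoded subunit of cytochrome oxidase, which fell by 0.29 (adjusted p = 0.0284). Their leave-one-out p was 0.075, 0.0738, 0.0801 and 0.107.

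The largest fall among coding genes at 5 CPM or more was that of CYP24A1, the enzyme that inactivates vitamin D. It was at 101, 105 and 76.8 CPM with TGFβ and at 31.2, 32.0 and 28 CPM with the combination, with no overlap (-1.63 ± 0.34, adjusted p = 0.022, leave-one-out p 0.0979). With DESeq2 its adjusted p was 0.0523. LRRC15, a membrane protein of TGFβ-activated fibroblasts, went from 4.80, 5.22 and 6.54 CPM to 2.06, 1.67 and 3.05 CPM (-1.28, adjusted p = 0.0102, leave-one-out p 0.0644). STRA6, a receptor for retinol uptake, went from 9.68, 9.0 and 9.59 CPM to 4.10, 4.66 and 4.25 CPM (-1.12, adjusted p = 0.0212, leave-one-out p 0.103). Both were lower in every combination library. BIRC7, an inhibitor of apoptosis (-1.07), P2RY6, a receptor for the nucleotide UDP (-0.92), LIPG, endothelial lipase (-0.87), and KCNJ12, a potassium channel (-0.86), fell with adjusted p of 0.0102, 0.0132, 0.011 and 0.0105 and leave-one-out p of 0.0644, 0.0801, 0.0558 and 0.0559. CEACAM1, a cell adhesion molecule, fell by 1.03 (adjusted p = 0.0105, leave-one-out p 0.0478). PSG5 fell by 1.14 (adjusted p = 0.0429) and IGFL1 by 0.90 (adjusted p = 0.0105). CEACAM1, PSG5 and IGFL1 belong to families with near-identical members and are uncertain for that reason. KIAA1755 and RFLNA completed the 15 largest falls, at -0.95 and -0.88, and the leave-one-out p of PSG5, IGFL1, KIAA1755 and RFLNA was 0.17, 0.0644, 0.151 and 0.101.

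Among coding genes at 5 CPM or more, the largest rises beyond those described were smaller. SMOC1, a matricellular protein that antagonises BMP, rose from 32.7, 35.5 and 28.1 CPM to 60.6, 64.0 and 41.5 CPM (0.78, adjusted p = 0.027, leave-one-out p 0.133). PPL (periplakin), a linker of desmosomes and keratin, rose from 39.5, 39.4 and 31.9 CPM to 61.0, 68.6 and 41.8 CPM (0.63, adjusted p = 0.0354, leave-one-out p 0.174). CEBPD, a C/EBP transcription factor, rose from 22.6, 25.9 and 23.0 CPM to 40.7, 37.9 and 30.0 CPM (0.60, adjusted p = 0.0116, leave-one-out p 0.0674). In each of the 3 the groups were separate and combination library 3 was the lowest of its group. PTX3, a secreted pattern receptor (0.70, adjusted p = 0.0382), TNFSF15, a ligand of the TNF family (0.63, adjusted p = 0.0109), CCDC146 (0.59, adjusted p = 0.0208) and APC2 (0.59, adjusted p = 0.0185) completed the 15, with leave-one-out p of 0.161, 0.0644, 0.107 and 0.0912. CREB5 did not meet the conditions for these 15, of 5 CPM or more and no overlap, and rose by more, 1.45 (edgeR adjusted p = 0.00149). Of the called genes 181 rises and 267 falls were protein coding, and 11 rises and 27 falls were not. FLJ16779, a noncoding gene, fell from 3.78, 4.06 and 4.12 CPM to 1.43, 1.62 and 1.55 CPM with well separated groups (-1.38 ± 0.17, adjusted p = 0.00134, leave-one-out p 0.0137). LINC01629 fell by 0.88 (adjusted p = 0.0401, leave-one-out p 0.148), ENSG00000258976, which has no symbol, by 1.02 (adjusted p = 0.014, leave-one-out p 0.0801), and the pseudogene SSR4P1 by 0.79 (adjusted p = 0.014, leave-one-out p 0.061). LINC03061 rose by 0.37 (adjusted p = 0.0164, leave-one-out p 0.0819) and the pseudogene HSD17B1P1 by 0.60 (adjusted p = 0.0382, leave-one-out p 0.162).

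Aramchol without TGFβ was measured against vehicle in the same fit, and this contrast shares no library with the one described so far. It called 77 genes, 0.357% of those tested. Of these, 43 were among the 486, which is 55.8% of the 77 and 8.85% of the 486. The direction was the same in 42 of the 43, with 30 higher and 12 lower in both, and JAG1 was the exception. Of the 192 genes that rose with the combination, 181 also had a positive value without TGFβ, with a median of 0.18 against 0.35 with TGFβ. Of the 294 that fell, 258 also had a negative value, with a median of -0.21 against -0.48. The share of all tested genes with the same sign in both contrasts was not counted, so these numbers have no background beside them. The 486 were chosen by their change with TGFβ, so the larger medians there are not a comparison of the 2 effects.

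Stress genes were called both with and without TGFβ, while the matrix and ER genes described above were called with TGFβ. The difference between the 2 effects was tested gene by gene as the interaction, which passed in 3 genes given below, and COL4A1 did not pass there (-0.44 ± 0.08, adjusted p = 0.175). Without TGFβ the changes were 1.41 for CHAC1 (adjusted p = 0.000742), 1.55 for SLC7A11 (adjusted p = 0.00131), 1.04 for ASNS (adjusted p = 0.0307), 0.43 for ATF4 (adjusted p = 0.00248) and 0.38 for SLC38A2 (adjusted p = 0.0104). In that contrast 5 of 28 integrated stress response genes and 5 of 23 amino acid transporters rose, and 1 transporter fell. Over all genes 0.236% rose and 0.121% fell there. None of the 35 ER chaperones (median 0.02), 28 collagen chains (median 0.01) or 41 other matrix proteins (median -0.05) was called by edgeR without TGFβ. At an unadjusted p under 0.05 there were 7, 5 and 3, and DESeq2 called 1, 0 and 1. DESeq2 called 396 genes in all in this contrast, and the number of all tested genes under that unadjusted p was not counted. COL4A1 had a change of 0.05 (95% interval -0.07 to 0.17), TGFBI of -0.17 and HSPA5 of -0.22 (adjusted p = 0.768, 0.475 and 0.508). Of the cholesterol genes 5 of 27 rose without TGFβ, beside the same 0.236% over all genes. SCD had a change of 0.40 without TGFβ (95% interval 0.18 to 0.62, adjusted p = 0.139), and its interaction, the change with TGFβ minus the change without, was -0.56 ± 0.15 (adjusted p = 0.683).

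**Figure D5:**
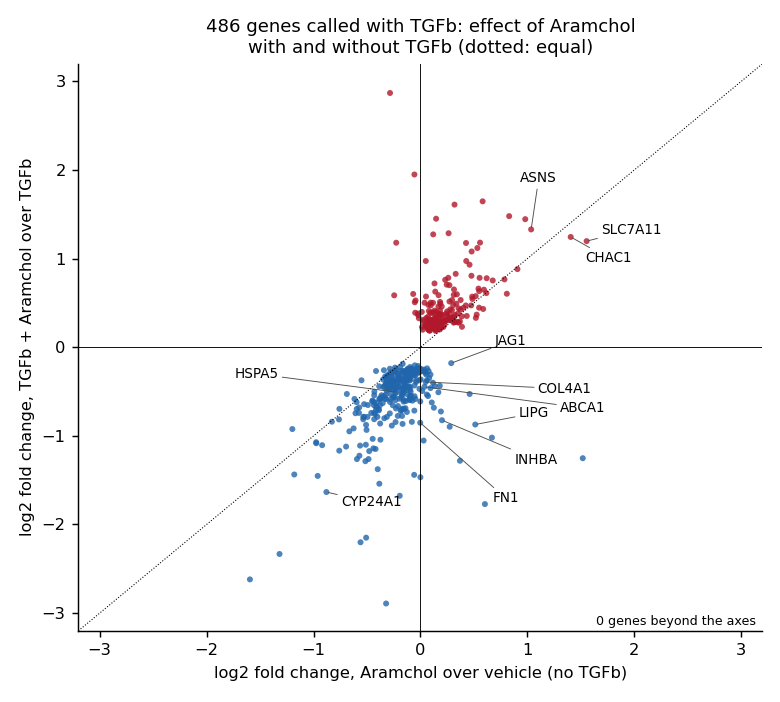
Log2 fold change of Aramchol with TGFβ (vertical axis) against that without TGFβ (horizontal axis) for the 486 genes called with TGFβ, 1 point per gene. CHAC1 and SLC7A11 lie high on both axes, while FN1 lies at -0.85 with TGFβ and near 0 without it.

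The interaction was called in 3 genes, 0.0139% of those tested, and 1137 of 21567 had an unadjusted p under 0.05. Without any difference a share of about 0.05 of genes would fall under that threshold, so the 1137 are not read as further results. FN1 was at 666, 685 and 627 CPM with vehicle and 643, 657 and 676 CPM with Aramchol alone. These groups overlapped (-0.00 ± 0.08, 95% interval -0.17 to 0.17), against -0.85 with TGFβ, an interaction of -0.85 ± 0.11 (adjusted p = 0.0205). JAG1, a ligand of Notch, rose without TGFβ from 64.5, 65.7 and 64.5 CPM to 80.4, 81.1 and 76.3 CPM (0.29, adjusted p = 0.0123). With TGFβ it fell from 184, 186 and 187 CPM to 164, 167 and 161 CPM (-0.18, adjusted p = 0.0458, leave-one-out p 0.163, and 0.0777 with no filter), an interaction of -0.47 ± 0.06 (adjusted p = 0.0205). SEC24D, a coat protein of vesicles that leave the ER, rose without TGFβ from 58.2, 59.6 and 57.8 CPM to 85.0, 81.7 and 84.2 CPM (0.51, adjusted p = 0.000742). With TGFβ it was at 107, 111 and 118 CPM and at 110, 111 and 117 CPM, where the groups overlapped (0.01 ± 0.05), an interaction of -0.51 ± 0.07 (adjusted p = 0.0233). The number of genes called in the interaction was 7 without vehicle library 3, 4 without Aramchol library 3, 3 without combination library 3 and 2 without TGFβ library 1. It was 0 without any 1 of the other 8 libraries, and DESeq2 called 30.

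TGFβ alone against vehicle called 7978 genes (37.0%), and this contrast shares the TGFβ libraries with the one described, so only values are set side by side. With TGFβ against vehicle FN1 had a log2 change of 3.49, INHBA of 4.17, TGFBI of 3.30, COL4A1 of 2.73 and CYP24A1 of 4.20, beside -0.85, -0.82, -0.51, -0.39 and -1.63 when Aramchol was added. Some genes that rose with Aramchol were lower with TGFβ than with vehicle, such as PDK4 (-2.60), PPL (-2.31), CEBPD (-2.09) and EREG (-1.42), whose changes on adding Aramchol were 1.18, 0.63, 0.60 and 0.81. The stress genes CHAC1 and SLC7A11 were at 0.46 and 0.61 with TGFβ against vehicle, beside 1.24 and 1.2 when Aramchol was added. Of the collagen chains 18 rose and 5 fell with TGFβ alone. HSPA5 had a change of 1.22 and HSP90B1 of 0.82 with TGFβ against vehicle, beside -0.51 and -0.45.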

How the data were processed

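Per the labels' protocols, Trizol was used for RNA and the IDT 2S Plus DNA kit for libraries. The submitters' processing notes name STAR 2.7.9a, featureCounts from Subread and the build GRCh38. The strand setting and the annotation release (not given in the sources used here) leave reads of overlapping or antisense genes uncertain. The table deposited by the authors holds raw counts per gene and library, and all 12 columns were matched to a group. Without molecular identifiers, counting error is the least error of a count.

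Genes passing filterByExpr were scaled by TMM and fitted with edgeR 4.0.16 (R 4.3.3) by quasi-likelihood, with 1 mean per group over all 12 libraries, and p-values were adjusted by Benjamini and Hochberg over the 21567 genes. The biological coefficient of variation was 8.90%. No test was made for the 20616 genes without a read in any library or for others below the filter. A count of 3 equals 0.0447 to 0.0545 CPM in the 6 libraries. Libraries of a group were compared in pairs and none were duplicates. On simulated data for this contrast the share recovered by edgeR was 32% at 1.25-fold, 74% at 1.5-fold, 98% at 2-fold and 100% at 4-fold (4 false calls). For the interaction it was 6, 50, 80 and 100% (11 false calls).

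The 45 gene lists (1081 genes measured) and all members were chosen with earlier results of these data known. Genes were named by rule: 36 fixed genes, the 15 largest called rises and falls of coding genes at 5 CPM or more without overlap, up to 4 noncoding genes in each direction at 2 CPM or more, the 4 called genes of lowest p in any list with 3 or more calls, and genes called in the interaction. No set test was run. Some genes under this rule are not reported here.

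Each result was refitted with other scalings (RLE, upper quartile), without the filter, with a harder filter (10 or more counts in 3 libraries, mean of 1 CPM), by DESeq2 1.42.0, with the replicate number as a block, on the 6 libraries alone, and with single libraries dropped. A term for the libraries numbered 3 and the libraries numbered 1 and 2 alone were also used, and list counts under these were added after seeing the data, as was the search for the ER stress response element. Promoters are RefSeq windows of GRCh38.p14, matched by symbol. Tables were handled in Python 3.11.15 (pandas 2.3.3, numpy 2.4.6) and figures drawn in matplotlib 3.10.9.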

Additional observations from a re-analysis of the deposited data

Results flagged for a closer look

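The effect of Aramchol differed between cells with and without TGFβ in 3 genes, by the interaction term of the edgeR fit over all 21567 tested genes. The interaction, the log2 change with TGFβ minus that without, was -0.85 for FN1 (adjusted p = 0.0205), -0.47 for JAG1 (adjusted p = 0.0205) and -0.51 for SEC24D (adjusted p = 0.0233). With 1 library left out the number of genes called ranged from 0 to 7.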

How the results depend on the processing

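The main count of 486 calls (192 higher and 294 lower) was 1278 (413 and 865) with no filter, 1045 (407 and 638) with DESeq2, 1519 (644 and 875) with the replicate block, 1683 (727 and 956) with a term for number 3, 1853 (763 and 1090) from libraries 1 and 2, and 960 (335 and 625) from the 2 groups alone, and 55 to 1209 with 1 library left out (22 to 497 higher and 30 to 712 lower). RLE scaling (480), upper quartile scaling (501) and the stricter filter (534) stayed within 1.5 times. The interaction count of 3 was 151 with no filter, 30 with DESeq2, 23 with the block, 31 with the term, 191 from libraries 1 and 2, and 0 to 7 with 1 library left out. The Aramchol alone count of 77 was 531, 396, 464, 538 and 1544 in the same order, 5 from its 2 groups alone and 16 to 611 with 1 library left out. The cause was not tested.

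Whether the replicate numbers used for the block pair the libraries is not stated. The deviations of same-numbered TGFβ and combination libraries correlated at 0.0396, 0.0211 and 0.189. TGFβ libraries 1 and 2 correlated better with a combination library of another number (0.0586 and 0.0907). Between the other pairs of groups same-numbered libraries correlated at 0.0074 to 0.221. Libraries numbered 3 correlated at 0.111 to 0.221 between groups, and negatively with every library of another number in another group.

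Of 87 named called genes 14 kept their call with each library left out in turn and 73 lost it at least once. Values near 0 changed sign: with 1 library left out INSIG1 (0.09) ranged from -0.012 to 0.167, SREBF1 (-0.01) from -0.035 to 0.0023, ACTA2 (-0.09) from -0.178 to 0.023, FASN (-0.0049) from -0.094 to 0.088 and SEC24D (0.01) from -0.028 to 0.047. FASN was 0.0087 from libraries 1 and 2. SEC24D was -0.00040 with DESeq2, -0.0015 with RLE scaling, -0.0041 with no filter and -0.0061 with upper quartile scaling. With 3 libraries a group, the smallest changes simulated were mostly missed.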
